A study of Mus musculus with 36 samples.

Results

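The effect of BtdCPU alone was measured in wild-type (WT) mouse embryonic fibroblasts, cultured fibroblasts derived from mouse embryos, by bulk RNA sequencing. The comparison was made of 3 libraries from WT cells given BtdCPU and 3 libraries from WT cells given the solvent DMSO, and its members were taken by the labelled genotype and treatment, so these are 6 of the 36 libraries of the study. Further groups of 3 libraries each were compared to show where the response to BtdCPU differed. These were cells labelled PERK -/- (called Perk-null here) given DMSO or BtdCPU, and WT cells given thapsigargin or halofuginone. The remaining groups were Perk-null cells given thapsigargin or halofuginone, and cells of either genotype given thapsigargin with BtdCPU or with halofuginone. All 36 libraries entered the fit that estimated the spread behind the tests, and the ratio of mitochondrial rRNA to mRNA below. All cells carry the one label MEF for the cell line. The labels state no dose, no treatment time, no batch and no way in which the Perk gene was removed. Where nothing states that replicates came from separate cultures, the p-values measure only the spread between these libraries, which may be technical.

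BtdCPU is a diaryl urea described as an activator of HRI, the kinase encoded by Eif2ak1. HRI, PERK (Eif2ak3), PKR (Eif2ak2) and GCN2 (Eif2ak4) phosphorylate the translation factor eIF2 alpha. Most protein synthesis then slows while the mRNA of the transcription factor ATF4 is translated, and ATF4 with its partners raises genes of amino acid supply, tRNA charging and feedback, a program called the integrated stress response (ISR). HRI is known for sensing low heme, and it is also switched on by DELE1 when the protease OMA1 cleaves it in stressed mitochondria. Thapsigargin blocks the calcium pump of the endoplasmic reticulum (ER) and stresses that organelle, where PERK, ATF6 and IRE1 with XBP1 respond. Halofuginone inhibits prolyl-tRNA synthetase and activates GCN2.

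The 6 libraries held 32454257 to 35897089 counts, and 13251 to 13772 genes in each had at least 10 counts. All 11 fibroblast markers examined had at least 10 counts in every one of the 6 libraries. CPM is a gene's counts scaled to a common library total, with TMM factors. The marker sums of this paragraph are the exception and use plain library totals without TMM. Fibroblast markers summed to 7443 to 7862 CPM under DMSO and 7019 to 7333 CPM under BtdCPU. Macrophage and leukocyte markers summed to 4.03 to 5.08 CPM with Emr1, Tyrobp and Cd3e among those at 0, and endothelial, epithelial, muscle and adipocyte markers to at most 1.62 CPM a list. Neural and pluripotency markers summed to 60.4 to 74.7 CPM under DMSO and 58.5 to 76.3 CPM under BtdCPU, most of it the neuronal tubulin Tubb3, with Pou5f1, Neurod1 and Sox10 at 0. Of the 4 neural and pluripotency markers tested, 2 were called higher, Map2 among them (log2 value 0.58), and of 5 endothelial markers tested, 1 was. The highest log2 values on these lists were 2.25 and 3.38, and the groups overlapped for every tested member of both. BtdCPU replicate 2 stood apart from the other two BtdCPU libraries: of the genes called below it lay nearest to the DMSO mean for 3163 of 3571, and the median shift of those genes in their own direction was 0.76, 0.29 and 0.73 on the log2 scale in BtdCPU replicates 1, 2 and 3. For several lists and genes, results are therefore also given without that library. Leaving it out also moved other values that are given only with it. The comparisons with thapsigargin and halofuginone are given with it included. In bulk RNA, fewer cells of a kind and less RNA per cell cannot be told apart.

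Across all genes, 16065 were tested with edgeR's quasi-likelihood test, and a gene is called when its Benjamini-Hochberg adjusted p is below 0.05. BtdCPU changed 3571 of them, or 22.2% of those tested, with 2075 higher (12.9%) and 1496 lower (9.31%). The change reached 1 on the log2 scale in 416 genes called higher and 277 called lower. The median over all tested genes was -0.01. In 2734 of the called genes the 3 BtdCPU libraries and the 3 DMSO libraries did not overlap, while 28.3% of all tested genes showed no overlap. The number of calls was 5062 without BtdCPU replicate 2, 1780 without BtdCPU replicate 1, 1966 without BtdCPU replicate 3 and 2370 without DMSO replicate 2. Fitting the 6 libraries by themselves, without the spread estimated from the other groups, gave 835 calls, 559 higher and 276 lower. Calls higher made up 58.1% of the total, and 45.1% where libraries were scaled by their totals without TMM.

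**Figure D1:**
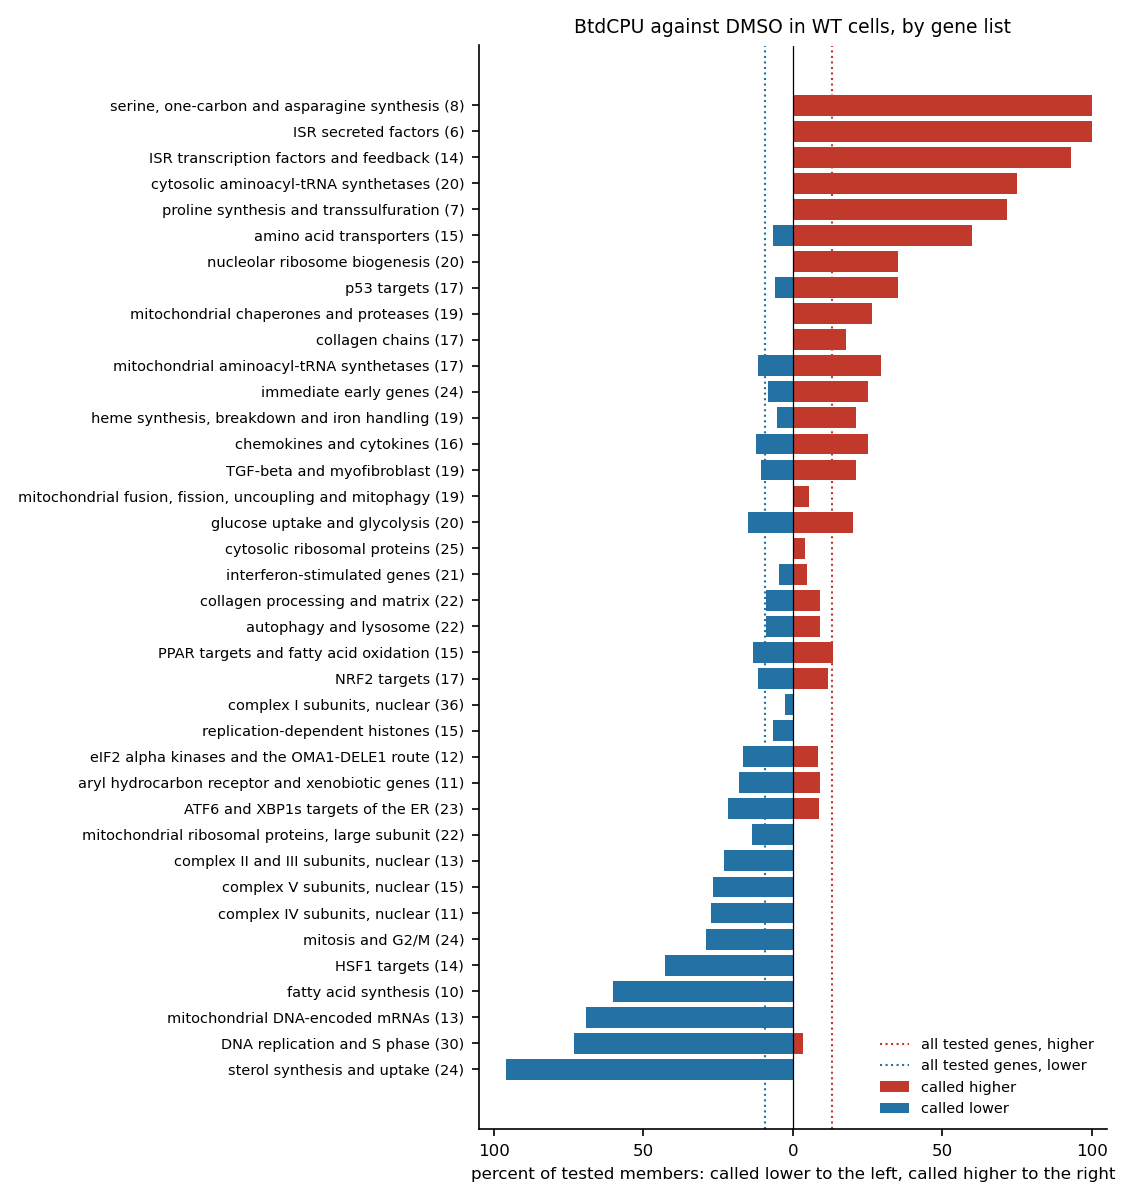
Share of the tested members of each of 38 gene lists called higher (red bars, to the right) or lower (blue bars, to the left) with BtdCPU in WT cells, with the number of tested members in brackets; the horizontal axis is in percent and dotted lines mark the shares over all tested genes, 12.9% higher and 9.31% lower. Lists of ISR and amino acid genes lie at the top, and the sterol list, with 23 of 24 members called lower, lies at the bottom.

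The ISR transcription factors and feedback genes rose almost together: 13 of 14 were called higher and none lower, with a median log2 fold change of 1.53. Atf4, the transcription factor at the centre of the program, stood at 371, 393 and 317 CPM in DMSO replicates 1, 2 and 3 and at 1163, 855 and 1096 CPM in BtdCPU replicates 1, 2 and 3. Every BtdCPU library lay above every DMSO library, and the rise was 2.88-fold (log2 1.53, SE 0.109, adjusted p 5.06e-12). Ddit3, which encodes the stress transcription factor CHOP, went from 13.9, 16.0 and 10.8 CPM to 156, 70.9 and 133 CPM, a log2 fold change of 3.14 (SE 0.224). In these values, as in nearly all rises that follow, BtdCPU replicate 2 was the lowest of its group and still above DMSO.

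The largest rise by the naming rule was that of Atf3, a factor of the ATF family that is induced by many stresses, from 1.09, 1.10 and 1.27 CPM to 33.6, 13 and 32.1 CPM (log2 4.51, SE 0.250, adjusted p 6.56e-14). Trib3, a pseudokinase induced by ATF4 and CHOP that restrains them, rose by 4.36 (SE 0.304) from 10.3, 18.9 and 6.62 CPM to 313, 147 and 277 CPM. Chac1, which degrades glutathione, rose by 3.65 (SE 0.223) from 7.46, 10.9 and 3.78 CPM to 116, 61.1 and 101 CPM. The spread of these feedback genes within DMSO was wide, but the groups were far apart. Ppp1r15a, which encodes the phosphatase subunit GADD34 that reverses eIF2 alpha phosphorylation, rose by 3.27 (SE 0.233), and Eif4ebp1, a repressor of cap-dependent translation, by 1.53 (SE 0.139). Ddit4, an inhibitor of mTORC1, was the member without a call: its log2 value was 0.62 (adjusted p 0.0847), its DMSO libraries ranged from 30.4 to 58.3 CPM and its BtdCPU libraries from 57.4 to 71.2 CPM, and it passed in 3 of 13 alternatives, one of them without DMSO replicate 2 (0.91, adjusted p 0.0293).

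All 6 secreted factors of the list also rose, with a median of 3.24 on the log2 scale. Adm2, a peptide hormone of the adrenomedullin family, rose by 4.10 (SE 0.429) from 0.514, 0.365 and 0.186 CPM to 9.56, 3.63 and 5.42 CPM. Stc2, a secreted glycoprotein, went from 5.63, 5.85 and 7.58 CPM to 55.3, 26.4 and 46.3 CPM, a log2 fold change of 2.75 (SE 0.215). Vegfa, the angiogenic growth factor, rose by 1.44 (SE 0.142). Fgf21, a stress hormone best known from liver, was near the limit of detection under DMSO (0.229, 0.197 and 0 CPM) and reached 7.25, 2.35 and 6.06 CPM, so that its fitted log2 value of 5.13 (SE 0.610) rests on few counts. Gdf15, a stress hormone that acts on appetite, likewise was read in a single DMSO library (0.169 CPM) and at 0.956, 0.454 and 1.07 CPM with BtdCPU.

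**Figure D2:**
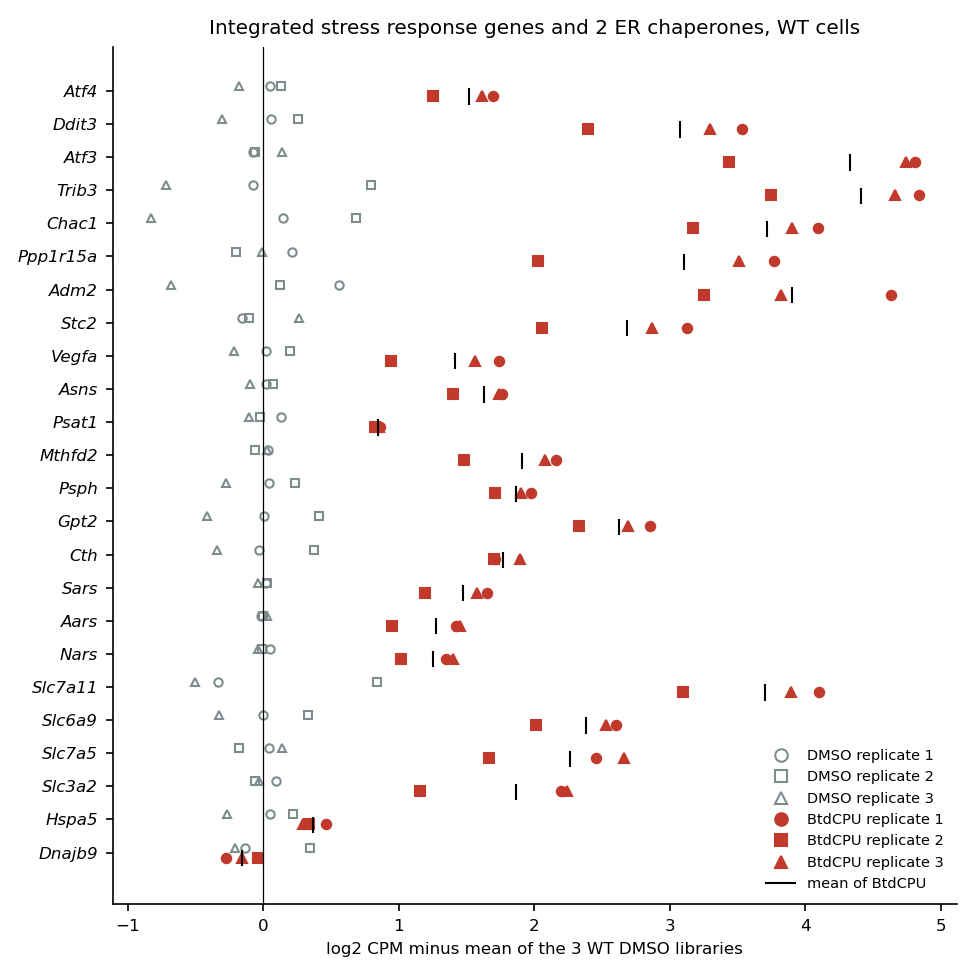
Log2 CPM of each library minus the mean of the 3 DMSO libraries (horizontal axis) for 24 genes in WT cells; grey open symbols are DMSO libraries, red filled symbols BtdCPU libraries, symbol shapes the replicate numbers and short black lines the BtdCPU means. The ISR genes lie to the right of all DMSO libraries with BtdCPU replicate 2 usually lowest, while the ER chaperone Dnajb9 overlaps DMSO.

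ATF4 with a C/EBP partner binds composite elements whose common core can be written TGATGNAA, and this was searched on both strands of RefSeq promoters of GRCm38.p6 (250 bases before to 50 after a gene's start). Promoters of 54 of the 70 genes on the 6 ISR lists described here (transcription factors, secreted factors, serine and one-carbon, proline and transsulfuration, synthetases, transporters) were in the table, and 17 of these genes (31.5%) held the letters, or 18 of 68 promoters (26.5%). The cAMP response element, TGACGTCA, was also searched and stood in 1 of the 68 promoters (1.47%) and in 1.79% of all promoters. TGATGNAA stood in 3.97% of all 32851 promoters, in 2.59% of the promoters of tested genes, in 4.66% of those of genes called higher and in 1.79% of those of genes called lower. The lists were assembled from knowledge of the ISR, so the frequency of TGATGNAA in them is no independent result. The upstream matches in the 6 ISR genes with the largest fold changes among those holding one are shown, 5′ to 3′ on the gene's own strand with the matched letters in capitals, because they let the shared core be read next to the responses given here. A match describes the letters and is no measured binding site.
Fgf21: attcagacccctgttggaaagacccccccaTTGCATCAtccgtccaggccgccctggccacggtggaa
Atf3: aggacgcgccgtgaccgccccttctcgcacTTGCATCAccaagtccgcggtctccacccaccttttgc
Chac1: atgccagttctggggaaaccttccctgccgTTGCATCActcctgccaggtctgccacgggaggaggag
Slc7a11: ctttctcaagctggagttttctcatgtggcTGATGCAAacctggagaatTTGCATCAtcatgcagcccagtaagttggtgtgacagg
Jdp2: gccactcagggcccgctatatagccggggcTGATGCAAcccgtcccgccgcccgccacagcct
Asns: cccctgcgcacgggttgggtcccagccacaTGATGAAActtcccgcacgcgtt

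In GRCm38.p6 these windows are chr7:45615592-45615659 on the minus strand for Fgf21, chr1:191183406-191183473 on the minus strand for Atf3 and chr2:119351019-119351086 on the plus strand for Chac1. Those of Slc7a11 (chr3:50443623-50443709, minus strand), Jdp2 (chr12:85599353-85599415, plus strand) and Asns (chr6:7693210-7693262, minus strand) complete the set. All lie upstream of the annotated start of their gene. In Fgf21, Atf3 and Chac1 the match begins 139, 110 and 193 bases before the start and reads TTGCATCA, the core on the opposite strand. Slc7a11 holds a match on each strand, 66 and 47 bases before its start, and Jdp2 and Asns hold one on the gene's strand, 33 and 23 bases before theirs. The Asns match, TGATGAAA, differs from the others in the base that the search left free. The log2 fold changes that go with them were 5.13, 4.51, 3.65, 3.65, 1.75 and 1.64 in the order printed.

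Genes that make non-essential amino acids rose with the transcription factors. All 8 members of the list of serine, one-carbon and asparagine synthesis were called higher (median 1.27), as were 5 of 7 members of the list of proline synthesis and transsulfuration (median 1.15). The latter list also holds the transaminase genes Gpt2 and Got1, which belong to neither of these pathways. Asns, asparagine synthetase, went from 227, 235 and 209 CPM to 757, 588 and 746 CPM, a 3.11-fold rise (log2 1.64, SE 0.106). Psat1, a serine synthesis enzyme, rose by 0.84 (SE 0.112) from 383, 344 and 325 CPM to 635, 619 and 633 CPM, and here replicate 2 was level with the other BtdCPU libraries. Psph, which releases serine in the last step of its synthesis, rose by 1.85 (SE 0.188), and Mthfd2, an enzyme of mitochondrial one-carbon metabolism, by 1.94 (SE 0.118). Shmt2, which passes carbon from serine to folate in mitochondria, rose by 0.90 (SE 0.098).

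Gpt2, a mitochondrial alanine transaminase, rose most in its list, by 2.60 (SE 0.176), from 28.0, 37 and 20.9 CPM to 202, 141 and 180 CPM. Cth, which makes cysteine by transsulfuration, rose by 1.74 (SE 0.233) and Aldh18a1, the first enzyme of proline synthesis, by 1.49 (SE 0.112). Cbs, which starts transsulfuration, did not pass the test (0.52, at most 0.397 CPM in any of the 6 libraries).

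Amino acid transporters followed, with 9 of 15 called higher and 1 lower (median 1.16). Slc7a11, the cystine and glutamate exchanger, rose by 3.65 (SE 0.278) from 1.74, 4.02 and 1.55 CPM to 39.0, 19.4 and 33.8 CPM. Both chains of the large neutral amino acid exchanger LAT1 rose: Slc7a5 from 164, 141 and 175 CPM to 873, 505 and 1007 CPM (log2 2.31, SE 0.153), and Slc3a2 from 215, 193 and 197 CPM to 926, 450 and 954 CPM (1.94, SE 0.160). Slc6a9, the glycine transporter GlyT1, rose by 2.38 (SE 0.209). Slc7a6 was the member called lower (-0.51, adjusted p 0.00288), a call that did not hold without BtdCPU replicate 1 (-0.37, adjusted p 0.0541) or with the 6 libraries fitted by themselves (adjusted p 0.0865).

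Of the 20 cytosolic aminoacyl-tRNA synthetases, which load tRNAs with their amino acids, 15 were called higher and none lower (median 0.84). Sars, for serine, rose by 1.49 (SE 0.117) from 288, 289 and 276 CPM to 893, 650 and 850 CPM. Aars, for alanine, rose by 1.29 (SE 0.087) and Nars, for asparagine, by 1.26 (SE 0.093), and the DMSO values of each differed by little next to the rise. The members without a call were Qars, Dars, Farsa, Kars and Hars, between -0.04 and 0.22 on the log2 scale. Against 12.9% of all tested genes called higher and 9.31% lower, 5 of the 17 synthetases that serve mitochondria were called higher and 2 lower. Without BtdCPU replicate 1 or 3 or DMSO replicate 2 these numbers were 3 and 0, without DMSO replicate 1 they were 4 and 0, without BtdCPU replicate 2 they were 6 and 5, and with the 6 libraries fitted by themselves both were 0. The higher calls of the 6 ISR lists stayed within 2 genes of these numbers when any one of the 6 libraries was left out.

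The transcripts of the kinases that start the ISR had small log2 values. Eif2ak1, the target named for BtdCPU, stood at 42.6, 41.4 and 48.4 CPM under DMSO and at 41.8, 42.8 and 45.6 CPM with BtdCPU, and the groups overlapped (log2 -0.02, SE 0.093, adjusted p 0.896). Eif2ak3, which encodes PERK, and Eif2ak2 were each called lower by -0.62 (SE 0.180 and 0.172), with BtdCPU replicate 2 close to DMSO: Eif2ak3 read 30.3, 32.4 and 30.7 CPM under DMSO and 16.4, 27.1 and 17.2 CPM with BtdCPU. Without BtdCPU replicate 1 neither kinase passed (-0.49, adjusted p 0.110, and -0.52, adjusted p 0.0824), nor without BtdCPU replicate 3 (-0.52, adjusted p 0.0922, and -0.49, adjusted p 0.0900), nor with the 6 libraries fitted by themselves, and without replicate 2 they stood at -0.89 and -0.91. Eif2ak4 had a log2 value of -0.33 (adjusted p 0.0545) and passed in 5 of 13 alternatives, among them the one without replicate 2 (-0.43, adjusted p 0.0171), with adjusted p from 0.00496 to 0.314. Oma1 (-0.13) and the gene of DELE1, listed as 0610009O20Rik (0.24, adjusted p 0.151), did not pass the test, although the latter passed in 2 of 13 alternatives, one of them without replicate 2 (adjusted p 0.0469). Opa1, the mitochondrial fusion protein that OMA1 also cleaves, was called higher by 0.38 (SE 0.091), a call lost with the 6 libraries fitted by themselves (adjusted p 0.109).

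Among 19 genes of heme synthesis, heme breakdown and iron handling, 4 were called higher and 1 lower, where 12.9% of all tested genes were called higher and 9.31% lower. Hmox1, which degrades heme and answers to several stresses, rose by 1.71 (SE 0.167) from 43.4, 47.5 and 43.3 CPM to 176, 103 and 159 CPM. Cpox, an enzyme late in heme synthesis, rose by 1.49 (SE 0.135). The other two were Alas1, the first enzyme of the pathway, and Slc25a37, which brings iron into mitochondria and missed the threshold with the 6 libraries fitted by themselves. The one lower call was lost when BtdCPU replicate 1 or 3 or DMSO replicate 1 or 2 was left out, and the lower calls numbered 5 without BtdCPU replicate 2.

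Of 23 targets of ATF6 and XBP1s, the ER arms that work beside PERK, 2 were called higher and 5 lower (median -0.15), where 12.9% of all tested genes were called higher and 9.31% lower, and the 5 lower calls became 1 without BtdCPU replicate 1, 2 without BtdCPU replicate 3, 3 without DMSO replicate 1 and 2 without DMSO replicate 2. Hspa5, the chaperone BiP, stood at 1423, 1604 and 1143 CPM under DMSO and at 1898, 1739 and 1689 CPM with BtdCPU. The groups did not overlap, but the log2 value of 0.35 missed the threshold (SE 0.141, adjusted p 0.0692), and it passed in 3 of 13 alternatives, one of them without DMSO replicate 2 (0.47, adjusted p 0.0401). Dnajb9, a cochaperone of BiP and a standard readout of XBP1s, had -0.18 (adjusted p 0.484) with overlapping groups, and Hsp90b1, the abundant ER chaperone GRP94, had -0.11. Herpud1, which serves ER-associated degradation, rose by 1.79 (SE 0.157) from 54.9, 57.0 and 51.6 CPM to 221, 128 and 218 CPM. The other higher call, Sel1l, which also serves ER-associated degradation, was lost without BtdCPU replicate 1 or 3 or DMSO replicate 1 or 2, and when counts were scaled by library size alone. With the 6 libraries fitted by themselves Herpud1 was the one call on the list. The ER stress element (CCAAT, then 9 free bases, then CCACG) stood in 7 of the 20 promoters found for this list and in 0.119% of all promoters.

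Chaperone genes under HSF1, the heat shock factor, which include the mitochondrial chaperones Hspd1 and Hspe1, had 6 of 14 called lower and none higher (median -0.26), where 9.31% of all tested genes were called lower. Hspa1a and Hspa1b, near-identical copies of inducible HSP70 whose reads cannot be split with certainty, changed by -1.20 (SE 0.258) and -1.26 (SE 0.252). Hspa1b read 65.2, 66.1 and 59.0 CPM under DMSO and 19.6, 38.9 and 20.8 CPM with BtdCPU.

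Transcripts encoded by mitochondrial DNA showed opposite changes by class. The 2 ribosomal RNAs, which form the core of the mitochondrial ribosome, were both called higher. Rnr1, the small subunit RNA, rose by 3.47 (SE 0.246, adjusted p 4.69e-12) from 107, 138 and 102 CPM to 1583, 858 and 1425 CPM. Rnr2, the large subunit RNA, rose by 2.62 (SE 0.292) from 880, 866 and 724 CPM to 6031, 3258 and 5904 CPM. All BtdCPU libraries lay far above all DMSO libraries, replicate 2 included. RNA from these libraries went through ribosomal depletion and mRNA selection, per the labels, so the levels are those of what was left after these steps, and the part of the depletion in the rise was not tested.

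The 13 mRNAs read from the same DNA, which encode subunits of the respiratory chain and of ATP synthase, had negative log2 values throughout, and 9 were called lower and none higher (median -0.81). CYTB, of complex III, read 5744, 6082 and 5490 CPM under DMSO and 1716, 4044 and 1788 CPM with BtdCPU (log2 -1.20, SE 0.260, adjusted p 0.00108, and 0.0524 with the 6 libraries fitted by themselves). COX1, of complex IV, overlapped between groups and was not called (-0.42, adjusted p 0.168). The sum of these mRNAs in replicate 2 lay within the DMSO range: the 13 summed to 40370, 46032 and 37341 CPM under DMSO and to 19357, 37688 and 19563 CPM with BtdCPU. In 5 of the 13, all BtdCPU libraries, replicate 2 included, lay under all DMSO libraries. Without replicate 2 all 13 were called lower (median -1.39), with 4 called without BtdCPU replicate 1, 5 without BtdCPU replicate 3, 5 without DMSO replicate 2, and 1 when the 6 libraries were fitted by themselves. Of the 18 mitochondrial tRNAs tested, 8 were called lower and none higher, where 9.31% of all tested genes were called lower. The called tRNAs differed in level. Under DMSO TrnL1 read 49.3, 49.8 and 44.3 CPM, while TrnK read 2.60, 2.00 and 1.73 CPM, so the latter rests on few counts. How the tRNA calls held without single libraries was not examined. The tRNA between the ribosomal RNAs, TrnV, had 0.69 (adjusted p 0.538).

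**Figure D3:**
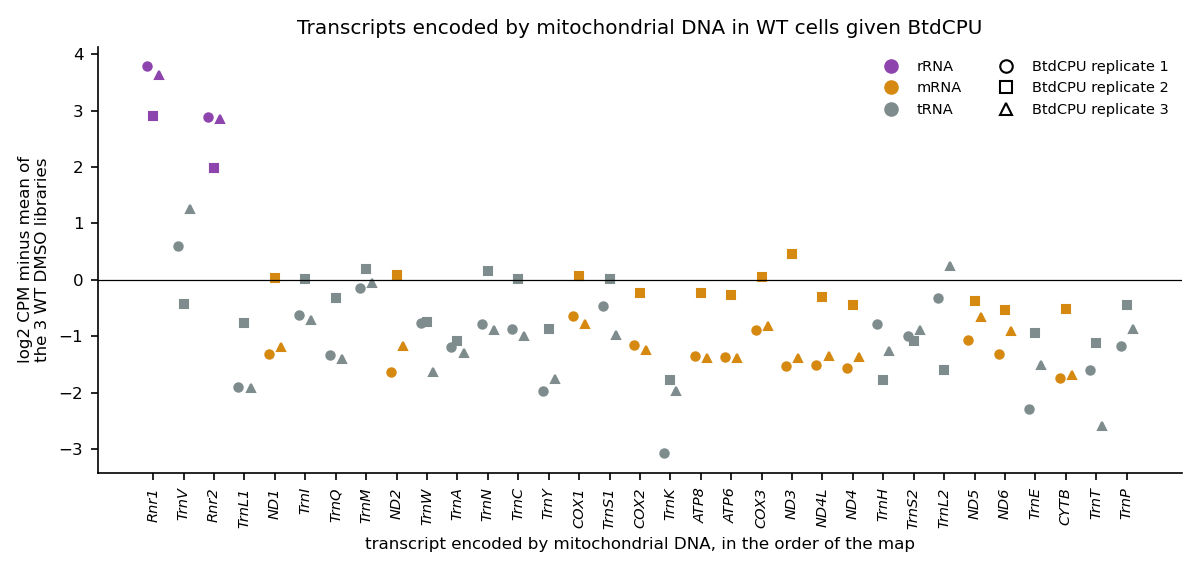
Log2 CPM of each BtdCPU library minus the mean of the 3 DMSO libraries (vertical axis) for the 33 tested transcripts of mitochondrial DNA, in the order of the map (horizontal axis); purple marks rRNA, orange mRNA and grey tRNA, and shapes mark replicates. Both rRNAs lie above 1.9 in all 3 libraries, while the mRNAs lie below 0 in replicates 1 and 3 and between -0.54 and 0.46 in replicate 2.

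The count of the 2 rRNAs divided by that of the 13 mRNAs, a ratio that does not depend on scaling between libraries, was 0.0245, 0.0218 and 0.0221 under DMSO and 0.393, 0.109 and 0.375 with BtdCPU. The groups of 3 did not overlap (two-sided exact permutation p = 0.1, the smallest that 3 against 3 libraries allow). Across the whole study, all 12 libraries given BtdCPU, alone or with thapsigargin and in either genotype, had ratios between 0.0853 and 0.698. The other 24 libraries, with thapsigargin and halofuginone among them, ranged from 0.0145 to 0.0371.

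**Figure D4:**
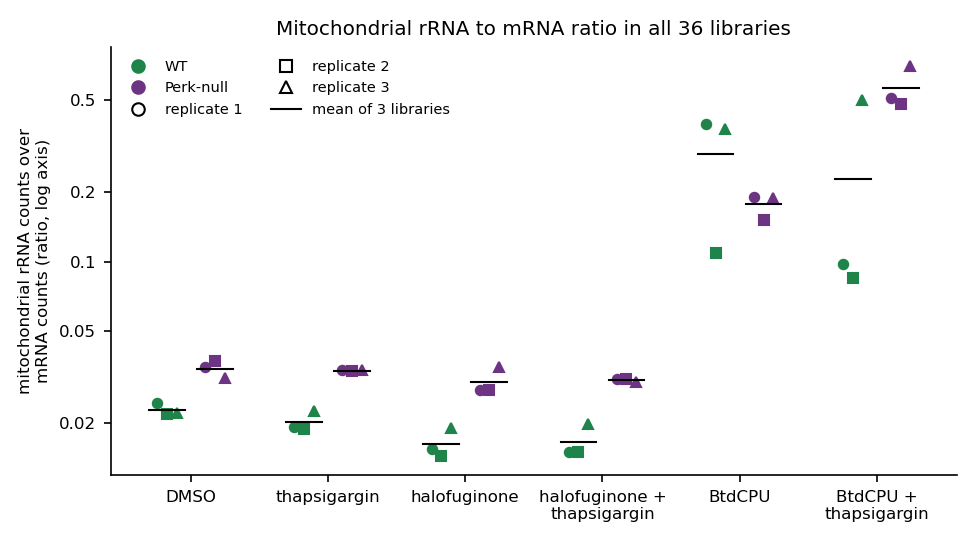
Ratio of mitochondrial rRNA counts to mitochondrial mRNA counts (vertical log axis) in all 36 libraries by treatment (horizontal axis), with WT in green, Perk-null in purple, shapes for replicates and short lines for means. Libraries with BtdCPU lie between 0.0853 and 0.698, and all others at or below 0.0371.

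Nuclear genes of the mitochondrion were examined next. Subunits of the respiratory chain encoded in the nucleus had no call higher, and the lower calls, against 9.31% of all tested genes, were 1 of 36 for complex I, 3 of 13 for complexes II and III, 3 of 11 for complex IV and 4 of 15 for complex V. Without BtdCPU replicate 2 the numbers were 7, 6, 4 and 6 lower. They were 1, 1, 0 and 1 without BtdCPU replicate 1 or 3, 1, 2, 1 and 1 without DMSO replicate 1 and 1, 2, 0 and 1 without DMSO replicate 2, and when the 6 libraries were fitted by themselves there were none. Many of these transcripts are short, and among 9961 tested genes with a known transcript length and an average log2 CPM of at least 2, those under 1000 bases had a median log2 value of -0.18 (-0.25, 0.02 and -0.35 in BtdCPU replicates 1, 2 and 3) against 0.11 for those of at least 4000 bases. The part of length in these lower values was not tested. Against 12.9% of all tested genes called higher, mitochondrial chaperones and proteases had 5 of 19 called higher and none lower, and 3 with the 6 libraries fitted by themselves. Among them Hspa9, the matrix HSP70, rose by 0.89 (SE 0.096) from 999, 909 and 982 CPM to 2002, 1438 and 1915 CPM, Dnaja3, its cochaperone, by 1.04 (SE 0.115) and Lonp1, the matrix protease, by 0.83 (SE 0.116). Mrpl18, a protein of the large mitochondrial ribosomal subunit whose gene overlaps Tcp1, fell by 1.39 on the log2 scale (SE 0.226), while the median over the 22 such proteins was -0.01. Ppargc1b, a coactivator that promotes mitochondrial genes, rose by 1.70 (SE 0.351) from 1.2, 1.15 and 1.73 CPM to 5.44, 1.81 and 6.0 CPM, and missed the threshold when the 6 libraries were fitted by themselves (adjusted p 0.0537).

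Sterol synthesis and uptake fell as a block: 23 of 24 genes were called lower, none higher, with a median of -1.12 and values from -1.72 to -0.31. In all 24 the 3 BtdCPU libraries lay under the 3 DMSO libraries. Idi1, which isomerizes isopentenyl diphosphate, fell 3.29-fold (log2 -1.72, SE 0.241) from 37, 39.7 and 31.3 CPM to 8.60, 16.8 and 7.47 CPM. Hsd17b7, a reductase of the cholesterol pathway, changed by -1.69 (SE 0.188), and Sqle, squalene epoxidase, by -1.06 (SE 0.134) from 407, 453 and 434 CPM to 173, 262 and 185 CPM. The number called lower was 20 to 23 without any one library and 20 with the 6 libraries fitted by themselves. The sterol element (TCACNCCAC, with N for any base) stood in 1 of the 19 promoters found for this list and in 1.24% of all promoters.

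Fatty acid synthesis had 6 of 10 members called lower and none higher (median -0.50), where 9.31% of all tested genes were called lower. Elovl6, which lengthens fatty acids, fell 3.17-fold (log2 -1.66, SE 0.202) from 32.1, 34.5 and 34.2 CPM to 7.48, 16.1 and 8.14 CPM, and Scd2, a desaturase, changed by -0.93 (SE 0.158). Angptl4, a secreted inhibitor of lipoprotein lipase, had the largest fall by the naming rule, 4.20-fold (log2 -2.07, SE 0.253), from 34.6, 40.5 and 49.5 CPM to 5.37, 16.8 and 7.31 CPM. Acot2, a mitochondrial acyl-CoA thioesterase, rose by 1.74 (SE 0.232). Angptl4 and Acot2 are from the list of PPAR targets and fatty acid oxidation. On that list 2 of 15 tested genes were called higher, 2 lower and 11 not, near the shares over all tested genes (12.9% higher and 9.31% lower).

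**Figure D5:**
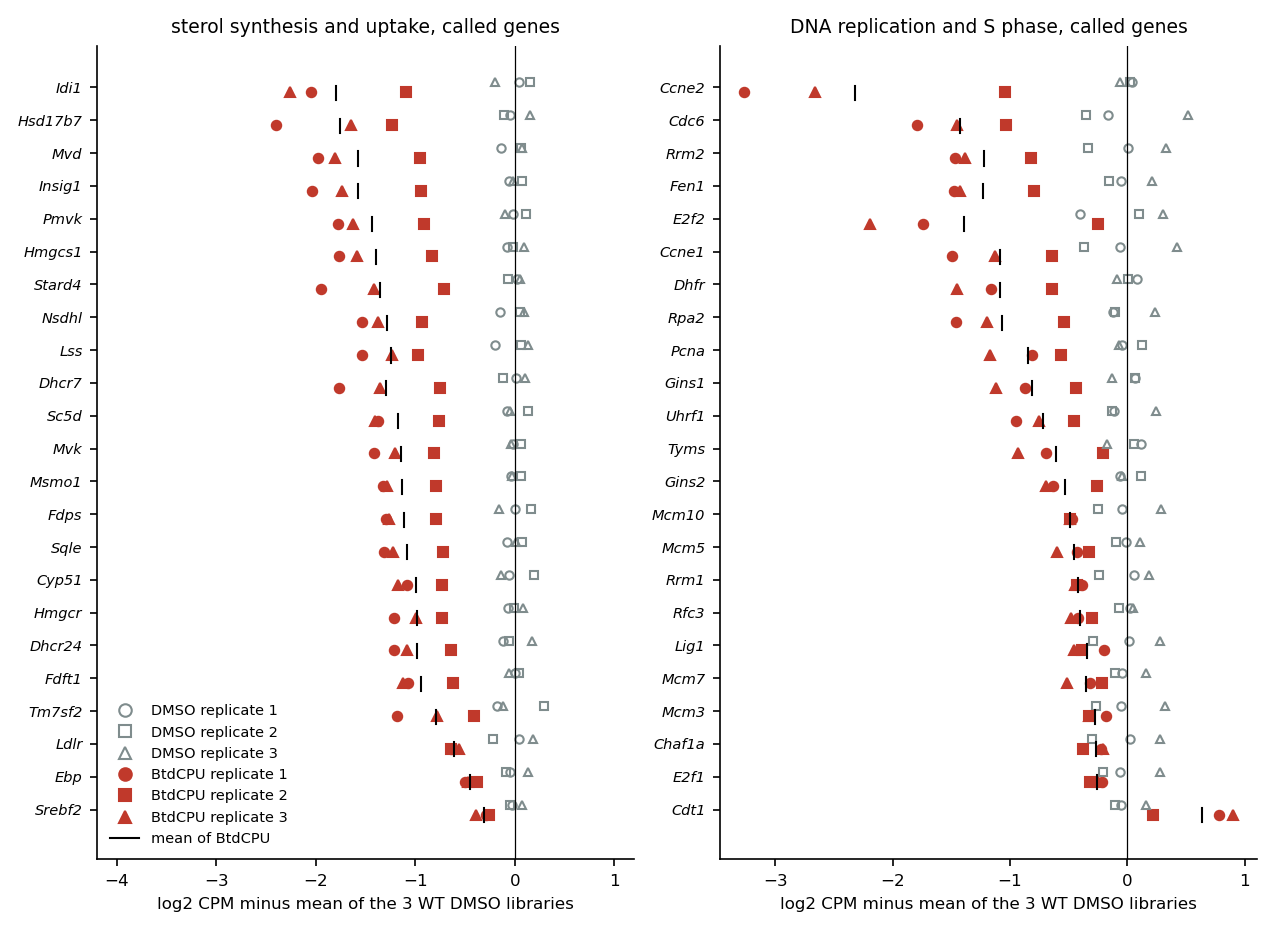
Log2 CPM of each library minus the mean of the 3 DMSO libraries (horizontal axes) for the 23 sterol genes called (left) and the 23 called genes of DNA replication and S phase (right), with grey open symbols for DMSO, red filled symbols for BtdCPU, shapes for replicates and black lines for BtdCPU means. The sterol genes shown lie to the left of their DMSO libraries with BtdCPU replicate 2 mostly nearest to 0, and Cdt1 is the S phase gene called higher.

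Of 20 genes of glucose uptake and glycolysis, 4 were called higher and 3 lower, where 12.9% of all tested genes were called higher and 9.31% lower. The lower calls were 1 without BtdCPU replicate 3 and 0 with the 6 libraries fitted by themselves. Hk2, hexokinase 2, rose by 1.74 (SE 0.235) from 23.3, 17.8 and 27.6 CPM to 91.5, 40.9 and 96.2 CPM, and Pfkfb3, which makes an activator of glycolysis, by 0.98 (SE 0.179). Txnip, a thioredoxin-binding protein that restrains glucose uptake, fell 3.63-fold (log2 -1.86, SE 0.356, adjusted p 0.000281) from 21.4, 23.5 and 15.7 CPM to 2.24, 11.8 and 2.41 CPM. Gm15441, a noncoding gene that overlaps Txnip and whose reads may be shared with it, changed by -1.60 (SE 0.314). With the 6 libraries fitted by themselves Txnip and Gm15441 missed the threshold (adjusted p 0.0780 and 0.0618), and without BtdCPU replicate 2 they stood at -3.12 and -2.42.

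Genes of DNA replication and S phase were largely lower: 22 of 30 were called lower and 1 higher (median -0.44). Ccne2, cyclin E2, which drives entry into S phase, fell 4.0-fold (log2 -2.0, SE 0.317) from 54.5, 53.7 and 50.8 CPM to 5.47, 25.7 and 8.32 CPM, and its gene overlaps Ints8. Cdc6, a factor that loads the replicative helicase, changed by -1.44 (SE 0.183), and Cdt1, another loading factor, was the one gene called higher (0.66, SE 0.120, adjusted p 0.0618 with the 6 libraries fitted by themselves). The lower calls numbered 14 without BtdCPU replicate 3 and 10 with the 6 libraries fitted by themselves. Mitosis genes had 7 of 24 lower and none higher (median -0.29), where 9.31% of all tested genes were called lower. Their lower calls were 4 without BtdCPU replicate 1, BtdCPU replicate 3 or DMSO replicate 1, 11 without DMSO replicate 3, and 1 with the 6 libraries fitted by themselves. Cdk1, the mitotic kinase, read 669, 599 and 445 CPM under DMSO and 270, 433 and 312 CPM with BtdCPU (log2 -0.76, SE 0.157).

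Several of the largest changes lay outside these groups. Gadd45a, a stress protein that slows the cell cycle, rose by 4.34 (SE 0.247) from 8.51, 8.88 and 6.47 CPM to 218, 70.5 and 195 CPM. Ciart, a repressor of the circadian clock, rose by 3.57 (SE 0.238) from 1.97, 1.69 and 1.58 CPM to 26.4, 10.2 and 26.0 CPM, and Cdsn, which encodes the skin protein corneodesmosin, by 3.82 (SE 0.374). Gadd45a and Ciart each overlap a noncoding gene. Among the falls, Dnm3os, a noncoding host of microRNA genes, changed by -1.61 (SE 0.326, adjusted p 0.0606 with the 6 libraries fitted by themselves), and the uncharacterized LOC102635781 by -1.85 (SE 0.261). Of 17 p53 targets, 6 were called higher and 1 lower, where 12.9% of all tested genes were called higher and 9.31% lower. Among these targets the BH3-only gene Pmaip1 stood at 1.70 (SE 0.347) and the kinase gene Plk2 at 1.34 (SE 0.198). Here 3 were higher and 0 lower with the 6 libraries fitted by themselves, and the lower calls were 3 without BtdCPU replicate 2 and 0 without BtdCPU replicate 3. Myc rose by 1.57 (SE 0.190), and Sqstm1, the autophagy receptor p62, by 1.40 (SE 0.134) from 474, 601 and 539 CPM to 1729, 970 and 1548 CPM.

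The Perk-null cells bear on whether this response needs PERK, but they cannot settle it. No group was labelled as rescued or as a further Perk-null line. Loss of PERK therefore cannot be told apart from other differences between the WT and Perk-null cells. Eif2ak3, the targeted gene, read 31.1 ± 1.10 CPM in WT and 9.95 ± 0.760 CPM in Perk-null DMSO libraries (SD, n = 3 each), so its transcript was lower but not at 0. Perk-null here stands for the label PERK -/-, which does not say how the gene was removed. The response to BtdCPU differed between genotypes in 32 genes (0.199% of those tested, edgeR interaction), 26 of them with a lower and 6 with a higher value in Perk-null cells, and 1626 genes had an unadjusted p below 0.05. All 26 were called higher in WT cells, and 14 of them also rose in Perk-null cells. The number of calls was 845 without WT BtdCPU replicate 2, 14 without WT BtdCPU replicate 1, 16 without WT BtdCPU replicate 3, 21 without WT DMSO replicate 1, 19 without Perk-null BtdCPU replicate 2 and 2 with only the 4 groups in the fit.

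In Perk-null cells BtdCPU changed 577 genes (3.59% of those tested), 410 higher (2.55%) and 167 lower (1.04%). The ISR lists kept their direction there, with 13 of 14 transcription factors and feedback genes higher (median 1.03 against 1.53 in WT), all 8 serine, one-carbon and asparagine genes (0.76 against 1.27), 8 of 15 transporters (0.68 against 1.16) and 11 of 20 synthetases (0.45 against 0.84). Atf3 rose by 4.51 in WT cells and by 2.24 in cells labelled PERK -/-, and these differ by -2.27 (SE 0.337, adjusted p 0.000395). Stc2 differed by -2.14 (SE 0.287): Perk-null cells already read 24.1 ± 2.31 CPM under DMSO (SD, n = 3) and 36.7 ± 3.15 CPM with BtdCPU. Slc7a5 and Slc3a2 also rose less, by -1.14 (SE 0.206) and -1.26 (SE 0.219), as did Mthfd2 (-0.86, SE 0.161) and Ciart (-2.0, SE 0.309). Sesn2, a stress-induced regulator of mTORC1, went the other way, with 1.28 in WT cells and 2.15 in Perk-null cells (difference 0.87, SE 0.122, adjusted p 0.000200). Sterol genes were lower in both genotypes, 21 of 24 called in Perk-null cells with a median of -0.92. Mitochondrial rRNA rose in both, Rnr1 by 1.99 and Rnr2 by 1.91 in Perk-null cells. Under DMSO Rnr1 read 399.5 ± 88.6 CPM in Perk-null and 116 ± 19.3 CPM in WT cells (SD, n = 3 each). With BtdCPU it read 1585.5 ± 199 and 1289 ± 381 CPM, so its smaller rise in Perk-null cells began from a higher level.

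The profile was next set against that of thapsigargin, which also raises ISR genes, by a direct test of BtdCPU against thapsigargin in WT cells. These groups differed in 6308 genes (39.3% of those tested), 19.2% higher and 20.1% lower with BtdCPU. On the ATF6 and XBP1s list all 23 members were called lower with BtdCPU, with a median difference of -2.22. Hspa5 differed by -3.50 (SE 0.155), Dnajb9 by -4.07 and Sdf2l1, an ER chaperone cofactor, by -4.99. Among ISR transcription factors and feedback genes 7 of 14 were lower with BtdCPU and 1 higher, with a median difference of -0.42, and Ddit3 and Atf3 were lower by -1.53 and -1.67. Trib3 (0.13) and Chac1 (-0.40) were not called. Rnr1 and Rnr2 were higher with BtdCPU than with thapsigargin by 3.84 (SE 0.251) and 3.41.

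Halofuginone differed from BtdCPU in 10339 genes (64.4%), with 31.9% of tested genes higher and 32.4% lower with BtdCPU. ISR transcription factors and feedback genes were split, 4 higher and 7 lower with BtdCPU, with a median difference of -0.36, and of 8 serine, one-carbon and asparagine genes 3 were higher, near the share over all genes, and none lower. All 10 fatty acid synthesis genes were higher with BtdCPU than with halofuginone (median difference 1.07), and of 24 sterol genes 12 were higher and 3 lower (median 0.36). Nuclear complex I subunits were also higher with BtdCPU in 33 of 36 cases. Many of these transcripts are short. Against DMSO, genes under 1000 bases had a median of -0.18 with BtdCPU and -0.70 with halofuginone. Those of at least 4000 bases had 0.11 and 0.25. The part of length in this difference was not tested. Histone genes of the replication-dependent kind, which stood at a median of -0.53 with BtdCPU, 1.99 with thapsigargin and 3.01 with halofuginone against DMSO, were lower with BtdCPU in 11 of 15 cases against thapsigargin and 14 of 15 against halofuginone. Against DMSO, 1 of these 15 histone genes was called lower with BtdCPU and 14 were not called, where 9.31% of all tested genes were called lower. Hist1h1c, a linker histone, differed by -6.21 between BtdCPU and halofuginone.

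Txnip separated BtdCPU from both other compounds. It changed by -1.86 with BtdCPU, 2.76 with thapsigargin and 4.59 with halofuginone against the shared DMSO libraries, and the direct differences were -4.62 and -6.45. Gm15441 followed it, with -4.30 and -6.26. Rnr1 was higher with BtdCPU than with halofuginone by 3.84 and Rnr2 by 3.88. Ppargc1b also parted them, with 1.70 for BtdCPU, -0.22 for thapsigargin and -1.71 for halofuginone against DMSO, and direct differences of 1.91 and 3.40.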

How the data were processed

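For 36 libraries the authors deposited a table of estimated counts by gene symbol, with no scaling between libraries. A value of 0.025 takes the place of 0, and 2.69% of the rest are fractional. Per the submitters' processing notes the build was GRCm39 and DESeq was used. Aligner, counter, annotation and use of strand are not given in the sources used here. Kits and strand-specific DNBSEQ libraries are per the labels' protocols.

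Entries with a date or number in place of a symbol (27, at most 0.278% of a library) were left out, 39 repeated symbols were summed and the expected counts rounded. With edgeR 4.0.16 in R 4.3.3, genes kept by filterByExpr were scaled by TMM and fitted by robust quasi-likelihood with 12 group means over all 36 libraries (24 residual degrees of freedom, common dispersion 0.0199), which pools the spread. Contrasts were BtdCPU against DMSO, thapsigargin or halofuginone in WT cells, and the interaction with genotype. Benjamini-Hochberg adjustment covered all tested genes. CPM uses TMM-scaled library sizes, except in the sums over cell type markers, which use plain library totals. Per-library log2 CPM uses a prior count of 2. On simulated counts of 16065 genes for BtdCPU against DMSO, the test called 50 of 50 genes at each log2 change of -2, -1, 1 and 2, and 7 unchanged genes. The simulation gave every gene the same fixed dispersion and the same mean in all groups, apart from the changed genes, which were well expressed. No simulated library stood apart as BtdCPU replicate 2 does, so these numbers do not give the power or the false calls in the real data. Within a group, libraries differed beyond sampling noise (chi-square per degree of freedom of at least 17.6), so each counts once.

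The genes and 38 lists were assembled from pathway knowledge, and members and lists were chosen with earlier results of these data known. Named genes are fixed ISR and ER readouts, the 8 largest rises and 8 largest falls (mean log2 CPM of at least 2, no overlap, more than 3 counts in each library of the lower group), the extreme called and most abundant members of each list, and the 3 most positive and negative called genes of each other contrast. Ppp1r15a, Gdf15, Jdp2, Alas1, Slc25a37, TrnV and list members named for lacking a call, and Sesn2, Acot1, Snai2, Ets2 and Zc3hav1, were added after their values were seen. Promoters are RefSeq GRCm38.p6. Symbols of the table were matched to that annotation for lengths and overlaps, among named genes Ddit3, Gadd45a, Ciart, Ccne2, Hspa5, Eif2ak1, 0610009O20Rik, Aars, Psph, Slc6a9, Dnm3os and Txnip overlap another gene, so their counts can include its reads. Alternatives were other scaling (RLE, library size), no filter or a stricter one, DESeq2 1.42.0, only the compared groups, a replicate block and leaving out each library. Mx1 and Mx2 of the lists were not analysed here.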

Additional observations from a re-analysis of the deposited data

Results flagged for a closer look

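The response to BtdCPU differed between Perk-null and WT cells, by the edgeR interaction test, for 16 genes named here. Smaller in Perk-null cells, on the log2 scale, were those of Cxcl10 (-2.87), Atf3 (-2.27), Stc2 (-2.14), Ciart (-2.0), Snai2 (-1.63), Ets2 (-1.52), Rnr1 (-1.49), Slc3a2 (-1.26), Slc7a5 (-1.14), Zc3hav1 (-1.13), Mthfd2 (-0.86) and Asns (-0.67). Cxcl10, a chemokine, rose in WT cells from 0.857, 0.450 and 0.619 CPM to 7.12, 2.07 and 2.93 CPM, while Perk-null cells read 11.3 ± 1.67 CPM under DMSO and 9.59 ± 2.03 CPM with BtdCPU (SD, n = 3). Snai2 and Ets2 encode transcription factors, and Zc3hav1 an antiviral RNA-binding protein that rose by 1.13 in WT cells and did not pass the test in Perk-null cells.

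Higher in Perk-null cells were Acot1 (2.46), Gcnt1 (1.53), Plau (1.08) and Sesn2 (0.87). Acot1, a cytosolic acyl-CoA thioesterase, stood at 49.3 ± 4.68 CPM in WT DMSO libraries and did not pass the test there (0.08), while it went from 0.163 ± 0.0967 to 0.972 ± 0.0505 CPM in Perk-null cells (SD, n = 3), so its response there is read at a far lower level. Plau, the urokinase gene, changed by -0.85 in WT cells and by 0.23 in the Perk-null ones, and Gcnt1, a glycosyltransferase gene, by -1.60 and -0.08.

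Stc2 and Acot1 passed in all 19 alternatives. With only the 4 groups in the fit the other 14 did not pass. Asns and Rnr1 passed in 8 of 19 and Gcnt1 in 10, with losses when any of several single libraries was left out. Mthfd2 was lost without WT BtdCPU replicate 1 or 3 and Cxcl10 without WT BtdCPU replicate 1. None changed sign.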

How the results depend on the processing

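BtdCPU against DMSO gave 3571 calls, 835 when only the compared groups were fitted, 5534 with the replicate block within genotype and 1780 to 5062 without any one library. The interaction gave 32, with 314 without a filter, 161 with DESeq2, 2 with only the compared groups, 587 with the block, and 14 to 845 without any one library. BtdCPU against thapsigargin gave 6308, with 4094 for only the compared groups. Library size as the only scaling lowered the median of all genes to -0.08 and the share called higher from 58.1% to 45.1%. Of 81 called genes named in the text, 67 kept call and direction in every alternative, 14 missed the threshold when only the compared groups were fitted, and none changed sign. Values that changed sign were Eif2ak1 (0.0018 without BtdCPU replicate 1 and 0.047 without DMSO replicate 3, with a range of -0.069 to 0.047 over left-out libraries), Dnajb9 (0.018 without DMSO replicate 2, range -0.277 to 0.018), Dars (-0.032 with library size as the only scaling, -0.058 without DMSO replicate 3, range -0.058 to 0.119) and the median of the autophagy and lysosome list (-0.034 with library size as the only scaling). Causes were not tested. Same-numbered WT BtdCPU and DMSO libraries correlated in their deviations by 0.068, 0.254 and 0.287. Each BtdCPU library matched its own number best, a hint of pairing. Against thapsigargin the values were 0.048, 0.202 and 0.293, again each best with its own number. Against halofuginone they were 0.012, 0.135 and 0.207, and replicate 1 matched another number best. The labels state no pairing, and the block was used only as an alternative. Low counts limit Fgf21, Gdf15 and Adm2.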
